A study of Mus musculus with 6 samples.

Results

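Collagens, laminins and the proteins that tie them together were followed in mouse bone marrow cells with and without active Notch1. The members were all genes whose symbol is that of a collagen chain or of a laminin alpha, beta or gamma chain, together with Nid1, Nid2, Hspg2 and Agrn. Of 18193 genes measured, 56 were members, namely 42 collagen chains, 10 laminin chains and 4 linkers. Symbols chose the genes, and the mean signal over all 6 arrays chose the probe set that stands for each gene, so neither used the difference between the groups. The family was nevertheless picked with earlier results of these data known, so its counts are descriptions. Col28a1 and Col6a6 were not analysed here.

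RNA came from LSK cells, the lineage-negative, cKit-positive and Sca1-positive bone marrow fraction enriched for blood stem cells and multipotent progenitors, with 1 Affymetrix array per sample. The 3 N1IC samples came from mice that carried lox-stop-lox N1-IC and Mx1-cre, so that Cre removes a stop cassette and the active intracellular part of Notch1 is made. The 3 WT samples came from mice with Mx1-cre alone. The mice were 5 weeks old, and both groups received polyIC, an interferon inducer that switches on Mx1-cre in blood and in other tissues, in 3 injections of 20 mcg per g of body weight from an age of 21 days. Cells were taken 2 weeks after the last injection. The treatment text of the labels names floxed Ncstn alleles in place of N1-IC, and the groups follow the genotype labels. The 3 N1IC samples are labelled female, against 1 female (replicate 2) and 2 males among the WT samples, so sex and group are partly bound together. Nothing in the labels says which mice were littermates of which, or outright that each sample is another mouse. Arrays are few, which limits the precision of every value.

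Collagens are trimers of chains wound into a triple helix. Fibrillar collagens build the cables of connective tissue, type IV collagen builds the sheet-like network of basement membranes, and laminins, each an alpha, a beta and a gamma chain, form the second network of those membranes. Nidogens and the heparan sulfate proteoglycans perlecan (Hspg2) and agrin (Agrn) link the networks to each other and to cells. In bone marrow these proteins are known chiefly as parts of the niche, made by stromal and endothelial cells and megakaryocytes, and blood progenitors bind them through integrins.

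Active Notch1 went with a lower signal of the main type IV collagen pair and a higher signal of both multiplexin collagens. With limma, p-values adjusted over the 18193 genes (Benjamini-Hochberg) and calls made under 0.05, 3 members fell in N1IC cells (Col4a2, Col4a1 and Col16a1) and 5 rose (Col18a1, Col15a1, Col9a3, Agrn and Lamb3). The 3 that fell are 5.36% of the members, where 8.31% of all genes fell. The 5 that rose are 8.93%, where 3.47% of all genes rose. Together the 8 are 14.3% of the members, where 11.8% of all genes passed, and 48 members did not pass. Without N1IC replicate 3, 5 members fell, as Col1a2 and Lamb2 then passed, and with sex as a covariate 2 rose and 2 fell. The median log2 fold change (N1IC mean minus WT mean) of the members was 0.03, with a middle range of -0.13 to 0.14, against a median of -0.01 and a middle range of -0.22 to 0.13 for all genes. Of the members, 41 lay within 0.5 of 0, or 73.2%, compared with 80.7% of all genes. A difference of more than 2-fold was seen in 10 members, 17.9% against 8.39% of all genes.

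**Figure D1:**
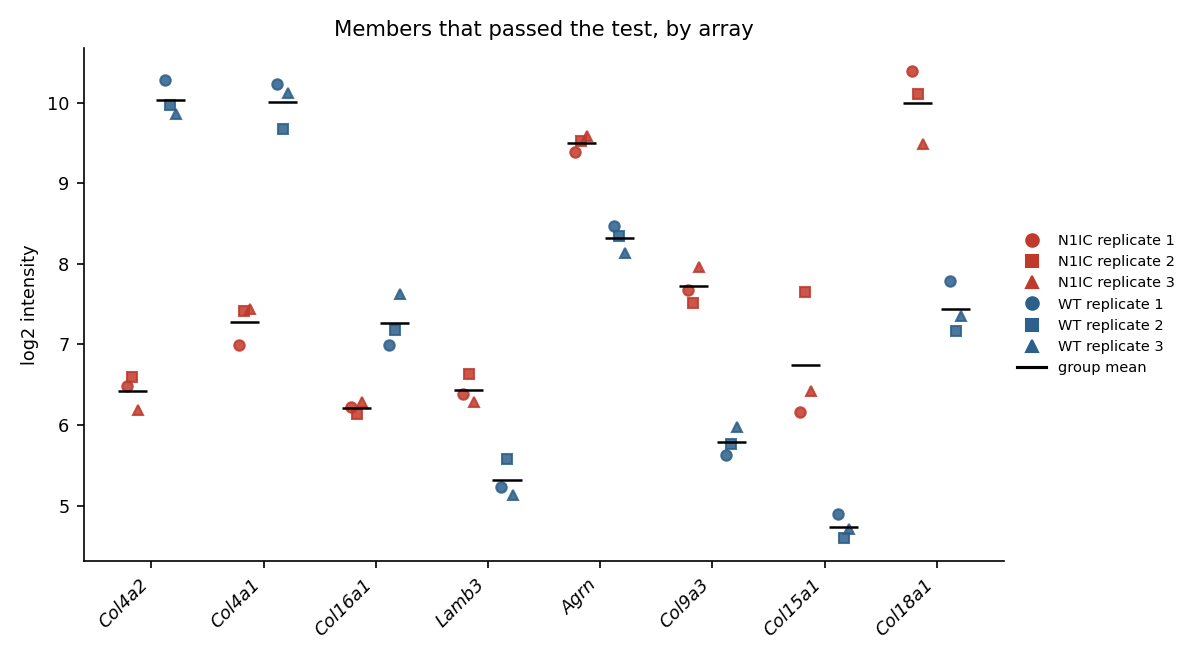
Log2 intensity on each array (vertical axis) for the 8 members that passed the test, with the N1IC arrays in red to the left of the WT arrays in blue; marker shapes give the replicate number and black bars the group means. For each of the 8 genes the red and blue points stand apart, and Col15a1 has the widest N1IC spread, with a standard deviation of 0.79 on the log2 scale.

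The sequence around the start of the type IV pair is shown because these adjacent, oppositely transcribed genes fell together, and the windows of Col18a1 and Lamb3 because they hold the letters of the RBPJ core, the site through which Notch acts on DNA. The windows are from RefSeq (GRCm38.p6), run from 250 bases before to 50 bases after an annotated start, and are written 5′ to 3′ on the gene's strand. Capitals mark the RBPJ core (TGGGAA), the CCAAT box (CCAAT) and the GC box (GGGCGG), each searched on both strands, with overlapping matches counted.
Col4a1 (chr8:11312777-11313076, - strand): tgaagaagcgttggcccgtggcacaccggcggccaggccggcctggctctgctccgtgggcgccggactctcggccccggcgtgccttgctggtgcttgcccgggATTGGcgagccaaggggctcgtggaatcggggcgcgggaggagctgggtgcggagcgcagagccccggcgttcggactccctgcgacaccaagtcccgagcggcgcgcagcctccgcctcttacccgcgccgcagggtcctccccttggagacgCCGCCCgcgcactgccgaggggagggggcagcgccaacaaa
Col4a2 (chr8:11312555-11312854, + strand): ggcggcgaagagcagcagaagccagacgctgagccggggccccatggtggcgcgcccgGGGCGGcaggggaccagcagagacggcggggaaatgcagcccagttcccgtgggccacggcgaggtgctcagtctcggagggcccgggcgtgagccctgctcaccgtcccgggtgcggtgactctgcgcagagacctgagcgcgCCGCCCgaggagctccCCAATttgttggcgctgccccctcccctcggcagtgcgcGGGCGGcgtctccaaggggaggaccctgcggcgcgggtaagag
Col18a1, downstream start (chr10:77113656-77113955, - strand): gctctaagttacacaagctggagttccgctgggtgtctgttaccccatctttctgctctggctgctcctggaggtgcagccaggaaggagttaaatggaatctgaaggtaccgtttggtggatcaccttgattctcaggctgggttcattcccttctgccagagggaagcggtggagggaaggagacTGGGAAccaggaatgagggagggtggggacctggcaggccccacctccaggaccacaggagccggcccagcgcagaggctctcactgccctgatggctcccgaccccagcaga
Lamb3, upstream start (chr1:193301744-193302043, + strand): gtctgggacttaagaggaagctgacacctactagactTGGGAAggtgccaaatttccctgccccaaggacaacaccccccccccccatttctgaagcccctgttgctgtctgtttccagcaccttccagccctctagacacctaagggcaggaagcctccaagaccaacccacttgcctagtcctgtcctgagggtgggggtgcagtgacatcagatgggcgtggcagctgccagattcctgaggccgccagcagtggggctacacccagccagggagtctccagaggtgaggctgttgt

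The annotated starts of Col4a1 and Col4a2 lie 21 bases apart, and their windows share 78 bases, which hold 1 GC box. Windows were found for 41 of the members, and 15 of these genes, or 36.6%, hold the RBPJ core in at least 1 window, compared with 28.3% of all genes with a window. Among the 7 members past the threshold that have a window, 2 hold it, Col18a1 and Lamb3, beside the 28.3% of all genes. Lamb3 holds it in both of its windows, and Col18a1 at its downstream start and not at its upstream start. The CCAAT box was found in 36.6% of members against 41.1% of all genes, and the GC box in 65.9% against 38.2%. A match of letters is a description and not a binding site.

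Col4a1 and Col4a2 encode the chains of the trimer that builds the type IV network in nearly all basement membranes. Col4a2 stood at 6.48, 6.59 and 6.18 log2 intensity on the N1IC arrays and at 10.28, 9.97 and 9.86 on the WT arrays. The N1IC arrays all lay more than 3 log2 units under every WT array. Its log2 fold change was -3.61 ± 0.16 (SE, n = 3 per group), a level 12.3-fold lower in N1IC cells (limma, Benjamini-Hochberg adjusted p = 0.00037). Among the members this was the smallest adjusted p.

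Col4a1 stood at 6.99, 7.41 and 7.44 on the N1IC arrays and at 10.24, 9.67 and 10.12 on the WT arrays. As for its partner, the 2 groups were far apart. The log2 fold change was -2.73 ± 0.19 (SE, n = 3 per group), or 6.63-fold lower in N1IC cells (limma, Benjamini-Hochberg adjusted p = 0.00127). A dimmer second probe set of Col4a1 had 5.04, 5.12 and 5.58 in N1IC cells and 8.83, 7.81 and 7.80 in WT cells, a log2 fold change of -2.90. Both chains kept their calls in all 16 alternatives tried.

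The other 4 type IV chains, Col4a3 to Col4a6, which make the specialised networks of tissues such as kidney, did not pass the test. On their brightest probe sets, their log2 fold changes ran from -0.31 (Col4a4) to 0.29 (Col4a3). The 95% confidence intervals of these lay within -0.64 and 0.74. The mean signal of these chains was between 3.48 and 5.35, low enough that fold changes are compressed, and no detection call was used here. In the RefSeq gene order Col4a1 is flanked by Irs2, which was at 8.02 ± 0.35 in N1IC and 8.01 ± 0.24 in WT cells (SD, n = 3). On the far side of Col4a2, Rab20 fell, at 5.49 ± 0.20 in N1IC against 6.77 ± 0.60 in WT cells (limma, Benjamini-Hochberg adjusted p = 0.0489), a call lost without any single array other than WT replicate 1, at adjusted p between 0.106 and 0.147. Among the 12 measured genes next to members that passed, 2 were higher and 2 lower, where 3.47% of all genes were higher and 8.31% lower.

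Type IV collagen is a product of endothelial cells and megakaryocytes as well as of other cells, so their markers were read beside it. How many such cells remained after the lineage-negative, cKit-positive, Sca1-positive sort was not tested. In bulk RNA, fewer cells of a type and less RNA per cell cannot be told apart. Of 11 endothelial markers 5 fell, or 45.5%, where 8.31% of all genes fell, and none rose. Their summed intensity ran from 2143 to 2372 on the N1IC arrays against 4792 to 6357 on the WT arrays. The 5 had log2 fold changes of -4.23 (Emcn), -2.67 (Tie1), -2.14 (Tek), -1.64 (Egfl7) and -0.62 (Stab2). Another 5 of the 11 lay above 0, and none of these passed. Cdh5 and Pecam1 did not pass, at log2 fold changes of -0.91 and 0.48. Of 7 megakaryocyte markers 6 fell, or 85.7%, with sums of 1022 to 1540 in N1IC against 6654 to 8981 in WT cells. Pf4 fell by 5.06 on the log2 scale. Of 9 stem and progenitor markers 6 fell, or 66.7%, with sums of 19698 to 20230 against 33535 to 38789. Whether the endothelial and megakaryocyte markers were read from such cells or from the LSK cells themselves was not tested. The part of any of these cells in the fall of Col4a1 and Col4a2 was not tested either. Of 9 mesenchymal stroma markers 1 rose, Pdgfrb, or 11.1%, where 3.47% of all genes rose. The 9 had sums of 3616 to 4077 in N1IC against 2050 to 2454 in WT cells. Without Pdgfrb the other 8 summed to 286 to 323 in N1IC and 258 to 485 in WT cells. None of the 5 pericyte and smooth muscle markers (sums of 191 to 203 against 188 to 291) or the 3 Schwann cell markers (117 to 134 against 118 to 160) passed.

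The surface gene Kit, part of the cell label, was at 11.51 ± 0.06 in N1IC and 11.76 ± 0.18 in WT cells (SD, n = 3). The pan-leukocyte gene Ptprc was at 12.14 ± 0.06 in N1IC and 11.96 ± 0.02 in WT cells (SD, n = 3). Neither passed, although the N1IC arrays lay wholly below the WT arrays for Kit and wholly above for Ptprc. The 6 stem and progenitor markers that fell were Hlf (log2 fold change -3.09), Flt3 (-3.08), Mecom (-2.81), Slamf1 (-2.65), Procr (-1.66) and Cd34 (-0.62). The gene of Sca1 was not analysed here. All 8 T-lineage markers were higher in N1IC cells, where 3.47% of all genes rose. Their summed intensities were 27255 to 32446 in N1IC against 759 to 2295 in WT cells. This difference stands beside every rise given below, and its part in them was not tested.

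Both multiplexin collagens rose. Multiplexins are basement membrane collagens that carry glycosaminoglycan chains and release vessel-inhibiting fragments from their ends, endostatin in the case of Col18a1. Col18a1 stood at 10.39, 10.11 and 9.49 in N1IC cells and at 7.79, 7.17 and 7.35 in WT cells. Every N1IC array was above every WT array by more than 1 log2 unit. This gave a log2 fold change of 2.56 ± 0.27 (SE, n = 3 per group), or 5.90-fold (limma, Benjamini-Hochberg adjusted p = 0.00402). The second Col18a1 probe set moved alike, by 2.53, with N1IC arrays at 9.90, 9.66 and 9.13 and WT arrays at 7.26, 6.73 and 7.09. This call was kept in all 16 alternatives.

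Col15a1, the other multiplexin, stood at 6.16, 7.65 and 6.42 in N1IC cells and at 4.89, 4.60 and 4.71 in WT cells. The groups did not overlap, but N1IC replicate 2 was more than 1 log2 unit above the other N1IC arrays. Its log2 fold change was 2.01 ± 0.38 (SE, n = 3 per group), or 4.03-fold (limma, Benjamini-Hochberg adjusted p = 0.0252). The call was lost without N1IC replicate 3 and without WT replicate 1, 2 or 3, at limma adjusted p of 0.0572, 0.0513, 0.0762 and 0.0819. Fitting sex as a covariate gave 2.14 at an adjusted p of 0.158, and the replicate number as a block gave an adjusted p of 0.0681.

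Changes within the FACIT class, collagens that sit on the surface of fibrils and have interrupted triple helices, went in both directions. Col9a3, a chain of the cartilage collagen IX, stood at 7.68, 7.52 and 7.96 in N1IC cells and at 5.63, 5.77 and 5.98 in WT cells. The log2 fold change was 1.93 ± 0.15 (SE, n = 3 per group), or 3.81-fold (limma, Benjamini-Hochberg adjusted p = 0.00158), and all N1IC arrays were above all WT arrays. A second Col9a3 probe set had 7.66, 7.70 and 8.11 in N1IC against 3.55, 4.72 and 4.90 in WT cells, a log2 fold change of 3.43, and another, dim one moved by 0.17 and did not pass. The sister chains of collagen IX, Col9a1 and Col9a2, did not pass.

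Col16a1, a FACIT chain found near basement membranes, fell. It stood at 6.22, 6.14 and 6.29 in N1IC cells and at 6.99, 7.18 and 7.63 in WT cells. The N1IC arrays were tightly grouped below all WT arrays. The log2 fold change was -1.05 ± 0.17 (SE, n = 3 per group) (limma, Benjamini-Hochberg adjusted p = 0.0154). Without N1IC replicate 1 or 2 the adjusted p was 0.0572 and 0.0546, and with sex as a covariate it was 0.152 at a log2 fold change of -0.96. The 7 FACIT chains that did not pass had log2 fold changes of 0.00 to 0.26 on their brightest probe sets.

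**Figure D2:**
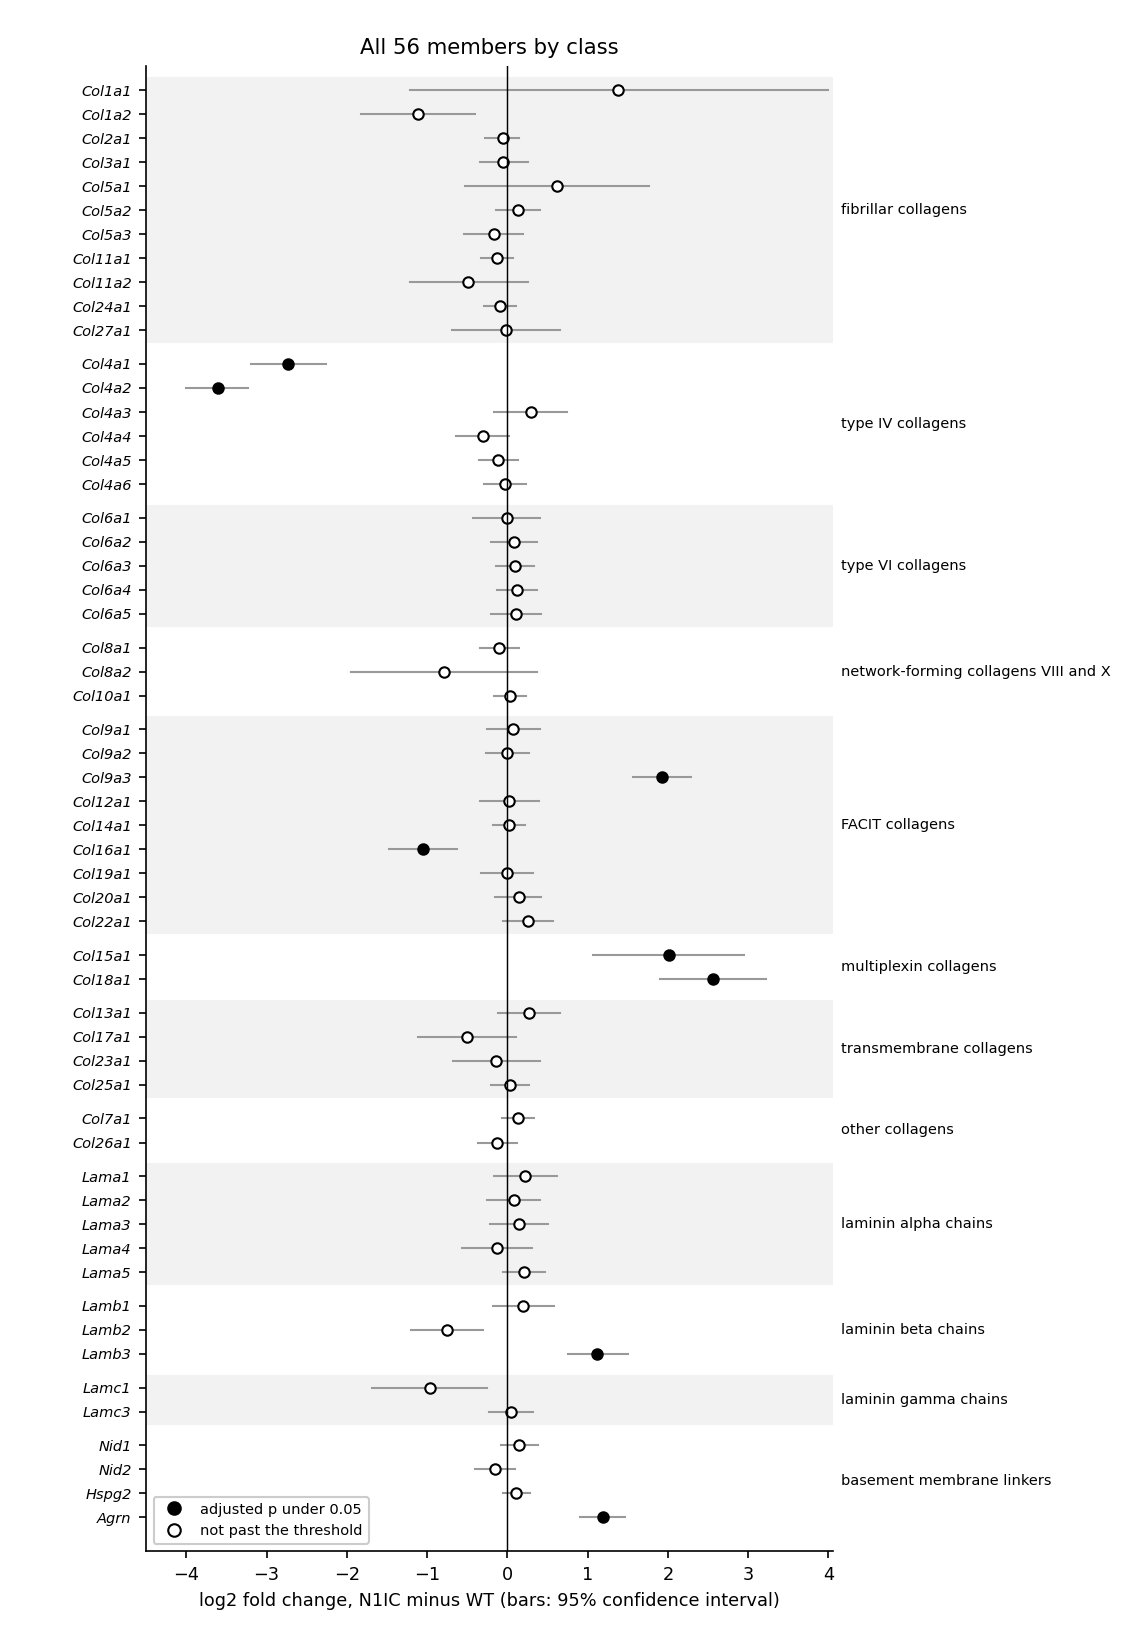
Log2 fold change (horizontal axis, N1IC minus WT) with its 95% confidence interval for each of the 56 members, grouped by class from top to bottom; filled points passed the test. Col4a1, Col4a2 and Col16a1 stand to the left, and Col9a3, both multiplexins, Lamb3 and Agrn to the right, while most other members lie near 0.

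Of the 10 laminin chains 1 passed the test, and it rose, where 11.8% of all genes passed in either direction and 3.47% rose. Lamb3 is the beta chain of the laminin that anchors epithelia. Lamb3 stood at 6.39, 6.63 and 6.29 in N1IC cells and at 5.23, 5.58 and 5.13 in WT cells, without overlap. This is a log2 fold change of 1.12 ± 0.15 (SE, n = 3 per group), or 2.18-fold (limma, Benjamini-Hochberg adjusted p = 0.00878). With sex as a covariate it was 0.85, with an adjusted p of 0.0813. Lama3, which pairs with Lamb3 in that laminin, had a log2 fold change of 0.14 and did not pass. A second Lama3 probe set went the other way, with 3.89, 3.59 and 3.67 in N1IC cells and 4.30, 4.01 and 5.87 in WT cells, at -1.01, and did not pass either (limma adjusted p = 0.255).

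Lamc1, the gamma chain of most laminins, had 7.31, 8.14 and 7.26 in N1IC cells and 8.95, 8.41 and 8.25 in WT cells. The groups did not overlap, although N1IC replicate 2 came close to the WT arrays. Its log2 fold change was -0.97, with a 95% confidence interval of -1.69 to -0.25 (limma, Benjamini-Hochberg adjusted p = 0.0967). Without N1IC replicate 2 it passed, at -1.25 and an adjusted p of 0.0408, and it also passed with the mean of its 2 probe sets, at an adjusted p of 0.0436.

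Lamb2, a beta chain of vascular and neuromuscular basement membranes, had 6.52, 6.38 and 6.89 in N1IC cells and 7.18, 7.22 and 7.63 in WT cells. Again the groups did not overlap. The log2 fold change was -0.75, with a 95% confidence interval of -1.20 to -0.30 (limma, Benjamini-Hochberg adjusted p = 0.0531). It passed without N1IC replicate 3 (-0.90, adjusted p 0.0472), with the replicate number as a block (adjusted p 0.028), and with only the brighter 60% of genes or the mean of all probe sets (adjusted p 0.0399 and 0.047).

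None of the 5 laminin alpha chains passed, and on their brightest probe sets they had log2 fold changes between -0.13 (Lama4) and 0.22 (Lama1) and 95% confidence intervals within -0.57 and 0.62. Lama5, a chain of the main laminins of vessels, had 6.69, 7.01 and 6.91 in N1IC cells and 6.59, 6.65 and 6.73 in WT cells, so that the groups overlapped slightly. Lamb1, the common beta chain, was at 6.45 ± 0.11 in N1IC and 6.25 ± 0.28 in WT cells (SD, n = 3), a log2 fold change of 0.20 that did not pass.

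Among the linkers, Agrn rose. Agrin is best known for clustering acetylcholine receptors at the nerve-muscle synapse, and binds laminins and dystroglycan. It stood at 9.39, 9.53 and 9.59 in N1IC cells and at 8.47, 8.35 and 8.13 in WT cells. All N1IC arrays were above all WT arrays and the spread within each group was small. Its log2 fold change was 1.19 ± 0.12 (SE, n = 3 per group), or 2.28-fold (limma, Benjamini-Hochberg adjusted p = 0.00319). With sex as a covariate it was 1.15, on the edge of the threshold at an adjusted p of 0.05. A second, much dimmer probe set had 4.96, 4.89 and 5.14 in N1IC against 5.08, 5.18 and 5.09 in WT cells and did not rise, so the mean of both gave 0.53.

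The remaining linkers did not pass. Hspg2 had 6.39, 6.42 and 6.32 in N1IC cells and 6.26, 6.26 and 6.28 in WT cells, which do not overlap but differ by only 0.11 on the log2 scale. Nid1 was at 4.65 ± 0.11 in N1IC and 4.50 ± 0.09 in WT cells, and Nid2 at 4.97 ± 0.10 in N1IC and 5.13 ± 0.14 in WT cells (SD, n = 3). Their log2 fold changes, 0.15 and -0.16, had 95% confidence intervals that lay, with that of Hspg2, within -0.41 and 0.38.

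**Figure D3:**
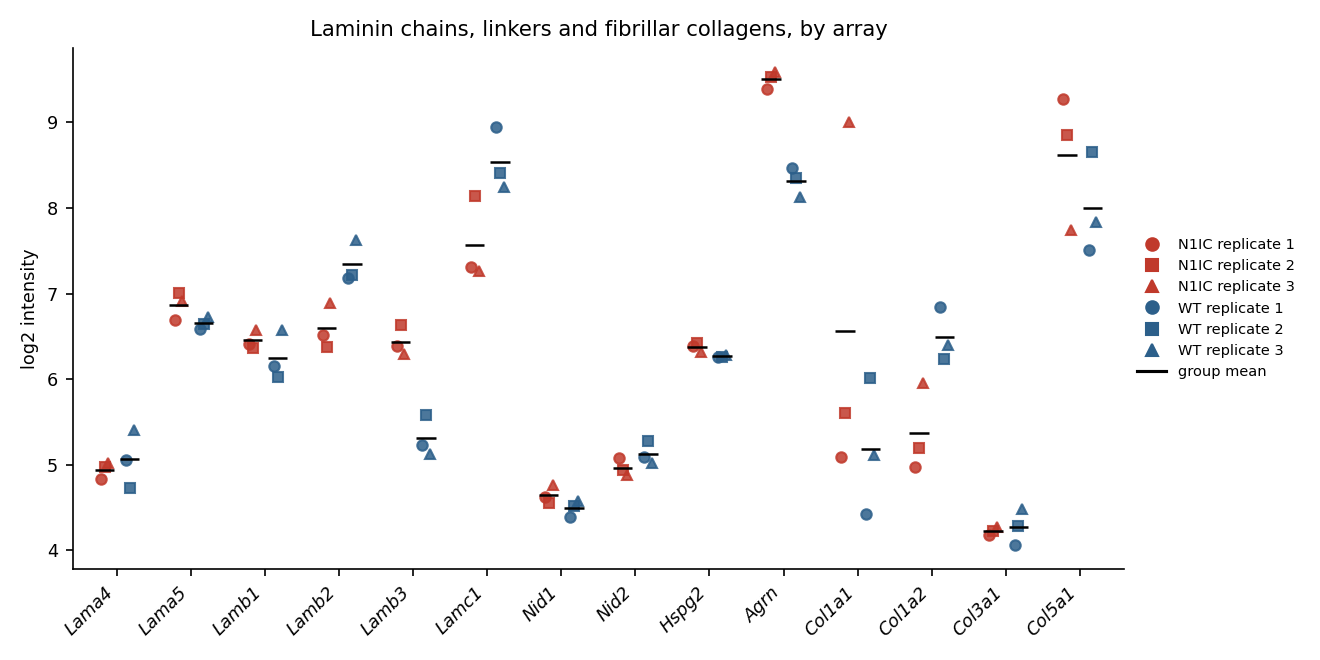
Log2 intensity on each array (vertical axis) for 6 laminin chains, the 4 linkers and 4 fibrillar chains, with N1IC arrays in red to the left of WT arrays in blue and black bars for the group means. Lamb3 and Agrn are higher in N1IC cells, Lamb2 and Lamc1 lie lower without passing the test, and Col1a1 has 1 N1IC array, replicate 3 at 9.00, far above the others.

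None of the 11 fibrillar collagens passed the test, where 11.8% of all genes passed in either direction. Col1a1 and Col1a2, whose products join in the collagen I of bone and skin, did not go together. Col1a1 had 5.09, 5.61 and 9.00 in N1IC cells and 4.43, 6.01 and 5.11 in WT cells, so that its log2 fold change of 1.38 ± 1.06 (SE, n = 3 per group) rests on N1IC replicate 3 and was 0.17 without it. On its second probe set that array was again the highest, at 7.04, and the other 5 lay between 5.02 and 5.66. The 4 markers measured of osteoblasts, cells that make much collagen I, summed to 138 on N1IC replicate 3, against 123 and 131 on the other N1IC arrays and 152 to 206 on the WT arrays. The 10 macrophage markers summed to 5268 on that array, the highest among N1IC arrays, and to 2157 and 2372 on the others, against 2119 to 5556 on WT arrays. Of these markers 2 rose in N1IC cells, C1qb by 2.01 and C1qc by 1.71 on the log2 scale, or 20.0%, where 3.47% of all genes rose. The N1IC arrays lay wholly above the WT arrays for 4 of the 10, where the share over all genes was 13.1%. Another 4 had log2 fold changes below 0, among them Cd68 at -1.04, Mrc1 at -0.64 and Csf1r at -0.36, and none of these passed. The part of these markers in the rises was not tested.

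Col1a2 had 4.97, 5.20 and 5.96 in N1IC cells and 6.84, 6.24 and 6.40 in WT cells. These groups did not overlap. The difference was -1.12 on the log2 scale, with a 95% confidence interval of -1.83 to -0.41 (limma, Benjamini-Hochberg adjusted p = 0.0619). Without N1IC replicate 3 it passed, at -1.41 and an adjusted p of 0.0252. Without any other single array it did not pass, at limma adjusted p of 0.0979 to 0.162. A second Col1a2 probe set overlapped, with 4.91, 4.01 and 6.44 in N1IC cells and 5.30, 6.39 and 6.71 in WT cells, and another, dim one moved by 0.05. With the mean of its probe sets Col1a2 was at -0.70 and did not pass (limma adjusted p = 0.169). Col3a1, the partner of collagen I in soft tissue, was low and alike in both groups, at 4.23 ± 0.05 in N1IC and 4.27 ± 0.21 in WT cells (SD, n = 3), with a 95% confidence interval of the difference of -0.34 to 0.25.

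Col5a1, which starts fibril assembly, varied within both groups, with 9.27, 8.85 and 7.74 in N1IC cells and 7.51, 8.65 and 7.84 in WT cells. Its log2 fold change of 0.62 ± 0.47 (SE, n = 3 per group) did not pass, and its other 2 probe sets gave 0.92 and 0.75. With sex as a covariate the value was -0.03. WT replicate 2, the female WT sample, was the WT array with the highest Col5a1 signal.

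The other collagen classes held no member that passed. On their brightest probe sets, the 5 type VI chains, which form beaded filaments, lay between -0.01 and 0.12 on the log2 scale. The 4 transmembrane collagens lay between -0.50 (Col17a1) and 0.27 (Col13a1) on theirs. A dimmer Col23a1 probe set was at -0.94 and did not pass (limma adjusted p = 0.27). Among network-forming collagens VIII and X, Col8a2 had 3.94, 4.10 and 3.78 in N1IC cells and 5.87, 4.20 and 4.12 in WT cells, so its log2 fold change of -0.79 rests on WT replicate 1 and was -0.22 without it. Col7a1, the anchoring fibril collagen, had 5.56, 5.75 and 5.59 in N1IC and 5.53, 5.48 and 5.50 in WT cells, a log2 fold change of 0.13. Counting by overlap alone, the N1IC arrays lay wholly above the WT arrays for 7 members and wholly below for 7, 12.5% each, where the shares over all genes were 13.1% above, 19.7% below and 32.8% in either direction.

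**Figure D4:**
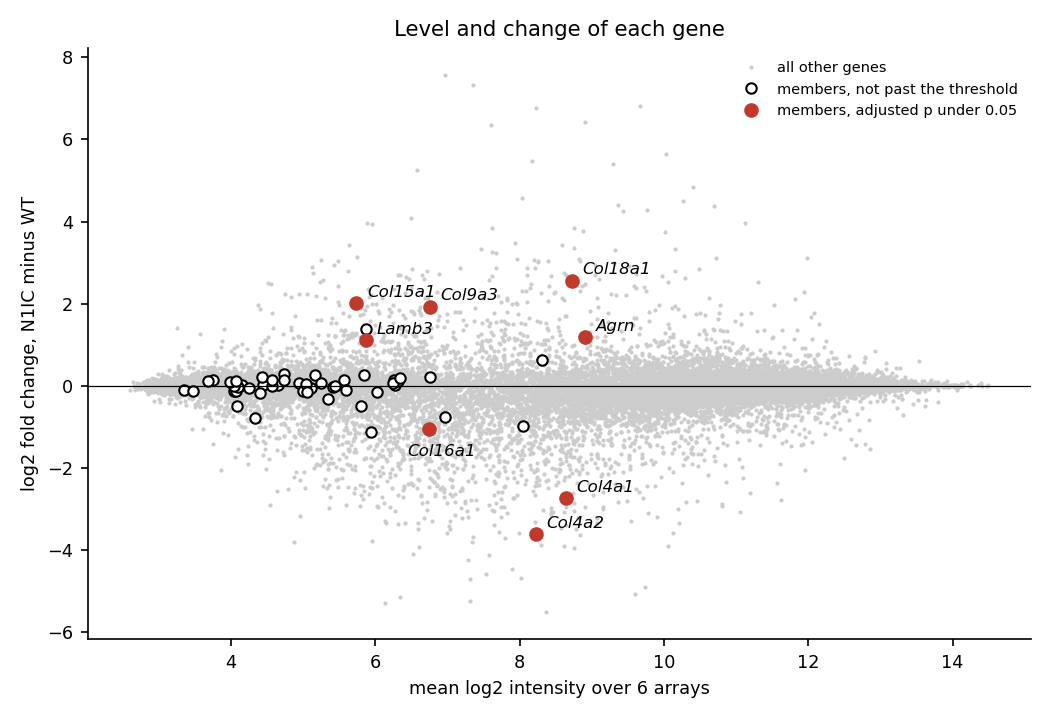
Log2 fold change (vertical axis, N1IC minus WT) against mean log2 intensity over 6 arrays (horizontal axis) for all genes in grey, members that did not pass as open circles and members that passed in red. Only 5 members have a mean signal above that of the median gene, 8.08, and most open circles lie at the dim end, where fold changes are compressed.

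Signal limits what can be seen. The median member had a mean log2 intensity of 5.21, against 8.08 for the median gene, and 10 of the 56 members lay among the brighter 60% of genes. Probe sets differ in how strongly they bind, so these figures describe the signal and not the amount of one RNA against another. Of the members, 36 had several probe sets. Those of Col4a1 and Col18a1 all passed when each was tested on its own, as did 2 of 3 for Col9a3 and 1 of 2 for Agrn.

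Among enzymes and chaperones that make and cross-link collagen, 7 of 30 measured fell in N1IC cells, or 23.3%, where 8.31% of all genes fell, and none rose. The list's median log2 fold change was -0.28, against -0.01 for all genes. Serpinh1, the chaperone that folds procollagen, had 4.29, 4.44 and 4.01 in N1IC cells and 6.89, 6.58 and 6.66 in WT cells. It fell by 2.46 on the log2 scale (limma, Benjamini-Hochberg adjusted p = 0.000701).

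P3h3, Plod1 and P3h4 encode parts of a complex that in mice hydroxylates collagen lysines, and all fell. P3h3 had 5.52, 6.06 and 6.11 in N1IC cells and 8.28, 8.18 and 8.05 in WT cells, a log2 fold change of -2.28 (limma, Benjamini-Hochberg adjusted p = 0.00159). Plod1, a lysyl hydroxylase, had 6.30, 6.45 and 6.77 in N1IC against 7.77, 7.69 and 7.73 in WT cells and fell by 1.22, and P3h4 fell by 0.71, at 5.33 ± 0.11 in N1IC against 6.04 ± 0.27 in WT cells (SD, n = 3). P3h2, a prolyl hydroxylase that acts on type IV collagen, had 7.04, 6.86 and 6.38 in N1IC cells and 8.25, 9.16 and 9.10 in WT cells and fell by 2.08. Tgm2, a transglutaminase that cross-links matrix, fell by 1.54, and Crtap, a helper of prolyl hydroxylation, fell by 0.88. The calls of Crtap and P3h4 were lost without N1IC replicate 1, 2 or 3 or WT replicate 2, at limma adjusted p of 0.073 to 0.1 for Crtap and 0.0774 to 0.111 for P3h4. With sex as a covariate only Serpinh1 and P3h3 passed in this list, while Plod1, P3h2 and Tgm2 had limma adjusted p of 0.0614, 0.059 and 0.103. With the mean of its probe sets Plod1 was at -0.46 and did not pass (limma adjusted p = 0.0587).

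**Figure D5:**
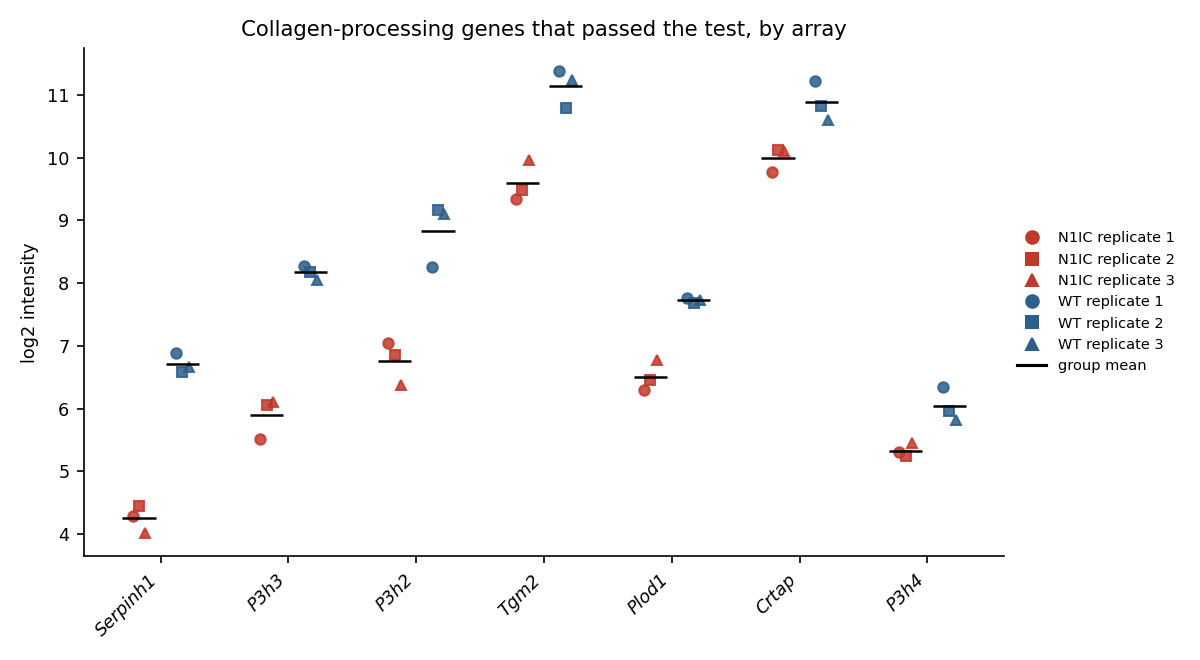
Log2 intensity on each array (vertical axis) for the 7 collagen-processing genes that passed the test, with N1IC arrays in red to the left of WT arrays in blue and black bars for the group means. All 7 are lower on every N1IC array than on any WT array.

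Receptors for collagen and laminin that passed the test gave small differences. Of 16 receptors measured, 2 fell and 2 rose, or 12.5% each, where 8.31% of all genes fell and 3.47% rose. The median log2 fold change of the list was 0.01. Its largest difference, that of Itga1, was imprecise and did not pass, at -1.76 ± 0.83 (SE, n = 3 per group). Itga1 had 4.54, 4.66 and 5.73 in N1IC cells and 4.98, 8.2 and 7.02 in WT cells, so that the groups overlapped. Ddr1, at -0.86 ± 0.98 (SE, n = 3 per group), did not pass either. Itga6, the alpha chain of a laminin receptor of progenitors, fell by 0.48, at 11.47 ± 0.10 in N1IC against 11.95 ± 0.05 in WT cells, and Dag1, the receptor for laminin and agrin, fell by 0.55, at 10.07 ± 0.09 against 10.62 ± 0.18 (SD, n = 3). Itgb4, whose product pairs with that of Itga6 to bind the laminin that holds Lamb3, rose by 0.94, at 7.11 ± 0.35 in N1IC and 6.17 ± 0.03 in WT cells. Itga10 rose by 0.46 at a dim signal, 4.84 ± 0.01 against 4.39 ± 0.11. The common beta chain Itgb1 was at 10.81 ± 0.02 in N1IC and 10.80 ± 0.19 in WT cells. None of these 4 calls held with sex as a covariate or with the replicate number as a block, at limma adjusted p between 0.0629 and 0.254. Leaving out N1IC replicate 3 also ended all 4, at adjusted p of 0.0543 to 0.105, and leaving out any other single array ended 2 or 3 of them.

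Other matrix proteins moved both ways. Of 45 measured glycoproteins and proteoglycans 6 fell and 3 rose, or 13.3% and 6.67%, where 8.31% of all genes fell and 3.47% rose, with a median log2 fold change of -0.03. Mmrn1, the platelet protein multimerin, had 6.59, 6.77 and 6.33 in N1IC cells and 10.24, 9.48 and 9.88 in WT cells, a fall of 3.31 on the log2 scale (limma, Benjamini-Hochberg adjusted p = 0.00103). Vwf, the von Willebrand factor of endothelium and platelets, fell, at a log2 fold change of -3.11, as did Bgn (biglycan) at -2.41, Tgfbi at -1.90, Thbs1 at -1.24 and Emilin1 at -0.70. Ntn4, a netrin that binds laminin, had 7.52, 7.14 and 6.56 in N1IC cells and 4.43, 5.22 and 4.53 in WT cells and rose by 2.35. Matn2 and Emilin2 rose by 1.79 and 1.78. The Matn2 call was lost with the replicate number as a block (limma adjusted p = 0.0643) and without any single array other than WT replicate 3 (0.0725 to 0.109). Each single array left out also ended the call of Thbs1, other than WT replicate 1 (0.0884 to 0.137), and of Emilin1, other than N1IC replicate 3 (0.0576 to 0.132). The Tgfbi call was lost without N1IC replicate 1 or 2 or WT replicate 2 or 3 (0.0604 to 0.0703), and that of Thbs1 with the block (0.122) and with the mean of its probe sets (0.0578). Without N1IC replicate 1, N1IC replicate 2 or WT replicate 2, 3 genes of this list fell, and with sex as a covariate 2 fell and none rose.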

How the data were processed

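The deposited values are linear probe set intensity values from RMA as run by the authors, a method that subtracts background, normalizes arrays together and pools a set's probes, per the submitters' processing notes. No version or settings of it are stated in the labels. Per the labels' protocols, Nugen Ovation amplification started from 5 ng of RNA, which can widen the spread of dim genes. Log2 was taken before any test. Of 45101 probe sets, 34945 had 1 gene symbol, 932 had several and 64 were controls; symbols were updated through RefSeq (GRCm38.p6), which held 34741. Each of 18193 genes was represented by its probe set with the highest mean over 6 arrays. The groups were tested with limma 3.58.1 under R 4.3.3 (lmFit and eBayes, two-sided, Benjamini-Hochberg adjustment, no covariate, 4 residual and 2.05 prior degrees of freedom), checked on simulated data. Nothing states outright that replicates are separate mice, so p-values measure the spread between these samples.

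Members and gene lists were chosen with earlier results of these data known. Named members are those past the threshold, the 8 brightest, the linkers, Col1a1, Col1a2, Col3a1, Col4a1 and Col4a2. From each companion list up to 5 genes past the threshold were named by smallest p, and from each marker list the brightest and the most changed. Other genes were named after their values were seen. Detection calls and scan dates were not used. Promoter windows were searched in Python 3.11.15, and plots drawn with matplotlib 3.10.9. Alternatives were fits with sex or with the replicate number added, other normalizations, probe set rules and variance priors, array weights, a filter on dim genes, other thresholds and leaving out each array in turn.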

Additional observations from a re-analysis of the deposited data

How the results depend on the processing

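Of the 8 members past the threshold, Col4a1, Col4a2, Col18a1 and Col9a3 kept their calls under every alternative tried, and no member past the threshold changed direction in any of them. Of 5 members higher in N1IC cells, 2 remained with sex as a covariate and 3 with only the brighter 60% of genes, a filter that removes Col15a1 and Lamb3 from the test. Sex as a covariate sets N1IC against the 1 female WT sample, so lost calls do not measure an effect of sex. The number of lower members was 3, against 2 with sex as a covariate, 5 with the mean of all probe sets (Lamb2 and Lamc1 gained), 6 at a threshold of 0.1 (Col1a2, Lamb2 and Lamc1 gained) and 2 to 5 with 1 array left out. Over all genes, 632 were higher and 1512 lower, against 116 and 333 with sex as a covariate, 357 and 936 with the replicate block, 209 and 536 at a threshold of 0.01, 1038 higher at 0.1, and as few as 332 and 835 with 1 array left out. With the replicate block 4 members were higher and 4 lower, since Col15a1 lost and Lamb2 gained its call. Same-numbered arrays deviated from their group means with correlations of -0.09, -0.07 and 0.07, so the numbers were not taken as pairs. Of the receptors, none was higher or lower at a threshold of 0.01, and none was lower with the mean of all probe sets. With 1 array left out, 0 or 1 were higher and 0 to 2 lower, and with only the brighter 60% of genes 1 was higher. In the biosynthesis list 1 gene was higher with the replicate block and at a threshold of 0.1. Among other matrix proteins 3 were lower at a threshold of 0.01. Genes that did not pass changed sign as follows. Col5a1 went to -0.03 and Lama4 to 0.21 with sex as a covariate, and Lama4 to 0.07 with the mean of all probe sets. With 1 array left out, Col3a1 ranged over -0.15 to 0.05, Lama4 over -0.30 to 0.05, Itgb1 over -0.09 to 0.09, Irs2 over -0.16 to 0.19 and Csf1r over -0.90 to 0.03. The cause of these changes was not tested. Dim probe sets compress fold changes, and no alternative tried changes that.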
